A study of Mus musculus with 7 samples.

Results

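Serum amyloid A (SAA) and orosomucoid (ORM, also called alpha-1-acid glycoprotein) are plasma proteins that the liver secretes in larger amounts during an acute-phase response. The rows of the deposited expression table with the gene names Saa1, Saa2, Saa3, Saa4, Orm1, Orm2 and Orm3 were taken, which gave 7 of 54532 genes. They were chosen because their values in livers on calorie restriction (CR) and on an ad libitum diet (AL) were known to differ between paralogues in direction and in spread, so those values are given here as a description with no test. The livers came from male C57BL/6 mice, 4 CR and 3 AL, that were 30 weeks old, and each liver gave 1 RNA library. CR mice had eaten 30% less than AL mice for most of the 18 weeks since the diet began at 12 weeks of age. CR mice lived in cages of their own and were given food once daily, whereas AL mice shared cages and always had food, so the diet cannot be told apart from the housing or from how long the mice had gone without food. All livers were collected in the afternoon, and poly(A) RNA was read as 150-base paired reads.

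In the acute-phase response, cytokines such as IL-6 and IL-1 reach the hepatocyte, STAT3, NF-kB and C/EBP factors are activated, and the genes of secreted acute-phase proteins are transcribed. SAA1 and SAA2 are the inducible forms that travel on high-density lipoprotein (HDL), SAA3 is known in mice mostly from adipose tissue and macrophages as well as from inflamed liver, and SAA4 is the constitutive form on HDL. Orosomucoids are heavily N-glycosylated lipocalins that carry drugs and other small molecules in plasma, and glucocorticoids also raise their transcription.

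Levels are in FPKM, which relate the fragments counted for a gene to its length and to the depth of the library. Reads assigned to genes, recovered from the FPKM, numbered 16486665 to 19900806 in CR livers and 15641740 to 16101631 in AL livers, and their mitochondrial share was 5.62% to 8.09% in CR livers and 3.92% to 4.85% in AL livers. The 8 hepatocyte markers that check the tissue label were all detected, with Alb, the plasma albumin gene, at 36441 to 42291 FPKM in CR livers and 13855 to 24725 FPKM in AL livers. All 7 genes passed the filter of at least 0.5 FPKM in at least 3 livers, together with 12692 others. These are whole-tissue libraries, so fewer cells of a type and less RNA per cell cannot be told apart.

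The genes lie in a pair of tight clusters. On GRCm38 the Saa cluster is on chromosome 7, with Saa3 at chr7:46711998-46715700 (minus strand), Saa4 at chr7:46727998-46732603 (minus strand), Saa1 at chr7:46740497-46742980 (minus strand) and Saa2 at chr7:46751790-46754313 (plus strand). The Orm cluster is on chromosome 4, with Orm1 at chr4:63344560-63348163, Orm3 at chr4:63356162-63359511 and Orm2 at chr4:63362449-63365878, all on the plus strand. No annotated gene overlapped any of the 7. Each gene is protein-coding, with 4 exons in the coding transcript of each Saa gene and 6 in that of each Orm gene.

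How alike the paralogues are bears on whether reads can be assigned to one of them. The coding sequences of Saa1 and Saa2 were identical at 348 of 366 bases, or 95.1%, and those of Orm1 and Orm2 at 558 of 621 bases, or 89.9%. Orm3 was 87.9% identical to Orm2 and 86.0% to Orm1, whereas Saa4 was 64.4% identical to Saa1 and Saa3 75.1%. Of the 100-base words in the coding transcripts, 47 of 676 (6.95%) were shared between Orm1 and Orm2, and none was shared with another gene for the other 5. Values of Orm1 and Orm2 are therefore uncertain where reads fall in those words. The following 60-base stretches (GENCODE M21 on GRCm38, 5′ to 3′, counted from the first base of the coding sequence) are the gap-free stretches with the most differences in each set and show where reads differ, with capitals at the 7 positions that differ between Saa1 and Saa2 and at the 25 positions that differ among the Orm genes.
Saa1 coding bases 90 to 149: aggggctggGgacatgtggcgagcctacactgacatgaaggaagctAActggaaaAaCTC
Saa2 coding bases 90 to 149: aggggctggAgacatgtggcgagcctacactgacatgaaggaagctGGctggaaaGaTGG
Orm1 coding bases 138 to 197: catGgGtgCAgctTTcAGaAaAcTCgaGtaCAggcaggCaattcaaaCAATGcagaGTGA
Orm2 coding bases 138 to 197: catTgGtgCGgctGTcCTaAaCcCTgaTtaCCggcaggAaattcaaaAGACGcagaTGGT
Orm3 coding bases 135 to 194: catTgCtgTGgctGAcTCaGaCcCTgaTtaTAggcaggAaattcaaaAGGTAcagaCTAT

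The 250 bases before the transcription start, from RefSeq promoters of GRCm38.p6, were read for the 6 members that had an entry, all but Orm1. Those of Saa1 and Saa2 were 94.8% identical and those of Orm2 and Orm3 85.5%, and every other pair was between 42.1% and 49.3%. In log2 levels over the 7 livers, Pearson r was 0.999 for Saa1 and Saa2 and 0.66 for Orm2 and Orm3. In deviations from the group means, which leave out the difference between the diets, r was 0.993 and 0.958. These windows are shown because only the first pair had nearly the same pattern of levels, and because Saa4 differed from its neighbours. Each is written 5′ to 3′ on the gene's strand, with capitals at matches to TTGCNNAA, the letters searched for C/EBP on both strands, and, in Orm3, at ACATCCTGT, a match to ACANNNTGT, the letters searched for the glucocorticoid receptor.
Saa1 chr7:46742981-46743230 (minus strand): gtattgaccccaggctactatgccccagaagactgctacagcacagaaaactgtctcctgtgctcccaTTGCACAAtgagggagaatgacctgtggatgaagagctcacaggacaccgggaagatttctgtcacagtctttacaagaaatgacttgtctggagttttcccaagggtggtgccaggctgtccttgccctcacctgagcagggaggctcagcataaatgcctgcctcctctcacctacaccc
Saa2 chr7:46751583-46751832 (plus strand): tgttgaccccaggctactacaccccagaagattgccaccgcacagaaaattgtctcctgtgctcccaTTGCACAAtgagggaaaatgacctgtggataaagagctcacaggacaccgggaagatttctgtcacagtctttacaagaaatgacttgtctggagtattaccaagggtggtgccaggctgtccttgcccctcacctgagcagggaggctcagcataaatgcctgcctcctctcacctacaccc
Saa4 chr7:46732604-46732853 (minus strand): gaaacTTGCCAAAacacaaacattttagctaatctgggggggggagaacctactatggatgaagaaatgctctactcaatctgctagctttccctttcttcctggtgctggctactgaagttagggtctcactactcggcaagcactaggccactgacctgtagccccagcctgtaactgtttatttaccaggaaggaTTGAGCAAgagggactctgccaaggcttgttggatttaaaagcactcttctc
Orm2 chr4:63362199-63362448 (plus strand): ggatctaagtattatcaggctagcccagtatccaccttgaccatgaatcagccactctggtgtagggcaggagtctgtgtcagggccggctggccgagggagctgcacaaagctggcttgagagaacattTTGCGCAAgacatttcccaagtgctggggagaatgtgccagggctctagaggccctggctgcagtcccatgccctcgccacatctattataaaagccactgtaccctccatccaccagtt
Orm3 chr4:63355908-63356157 (plus strand): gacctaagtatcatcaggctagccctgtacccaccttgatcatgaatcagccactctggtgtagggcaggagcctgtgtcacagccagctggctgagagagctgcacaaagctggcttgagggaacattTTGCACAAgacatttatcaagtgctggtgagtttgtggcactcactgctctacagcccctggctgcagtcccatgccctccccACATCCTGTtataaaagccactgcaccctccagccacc

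The C/EBP letters were found in 6 of the 6 windows, against 9.56% of 32851 promoter windows of the same length. The 6 are not separate observations, since the Saa1 and Saa2 windows were 94.8% identical and those of Orm2 and Orm3 85.5%. The letters began at position -182 in Saa1, -183 in Saa2, -99 in Saa3, -245 and -52 in Saa4, -120 in Orm2 and -121 in Orm3, counted back from the start. The glucocorticoid receptor letters occurred in 5.84% of all windows and among the members in Orm3, at position -38. The letters TTCNNNGAA for STAT3 (7.02% of all windows) and the pattern of letters searched for NF-kB (4.11%) were not in these 6 windows. Both were also sought on both strands. NF-kB sites with letters outside the searched pattern were not sought, so their absence from these windows is not shown. No searched motif overlapped another in these windows. A match is a string of letters and not a bound site.

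By FPKM, the inducible pair Saa1 and Saa2 was the most abundant part of the Saa family in AL livers and a small part of it in 3 of 4 CR livers. The size of that part depends on the gene length used, given below. Saa1 (ENSMUSG00000074115) had 2.28, 2.89, 36.9 and 3.06 FPKM in CR livers 1 to 4, against 771, 748 and 4176 FPKM in AL livers 1 to 3. CR liver 3 was 13.4 times the mean of the other CR livers, and AL liver 3 was 5.50 times the mean of the other AL livers, but the groups did not overlap. The means were 11.3 ± 17.1 FPKM in CR livers (SD, n = 4) and 1898 ± 1972 FPKM in AL livers (SD, n = 3), a level 168-fold lower in CR, and the log2 difference (CR minus AL, on log2(FPKM + 0.1)) was -7.96. It was -8.89 without CR liver 3 and -7.14 without AL liver 3.

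Saa2 (ENSMUSG00000057465) had 0.700, 1.12, 11.7 and 1.05 FPKM in CR livers, against 535, 477 and 3813 FPKM in AL livers. The same livers were high, CR liver 3 at 12.3 times the other CR livers and AL liver 3 at 7.53 times the other AL livers, and the groups did not overlap. Means were 3.64 ± 5.38 FPKM in CR livers (SD, n = 4) and 1608 ± 1909 FPKM in AL livers (SD, n = 3), 441-fold lower in CR, with a log2 difference of -9.02, or -9.90 without CR liver 3 and -8.05 without AL liver 3. The CR values rest on 35, 46, 505 and 53 reads, against 20415 to 149660 reads in AL livers.

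The balance between the pair also differed with the diet. Saa1 had 3.20, 2.54, 3.10 and 2.87 reads for each Saa2 read in CR livers, against 1.42, 1.54 and 1.08 in AL livers. The ratio in CR liver 3, where both genes were high for a CR liver, was within the range of the other 3 CR livers, and the groups did not overlap.

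Saa3 (ENSMUSG00000040026), a pseudogene in humans but expressed in mice, was the least abundant Saa gene and the one most set by 1 library. It had 0.367, 0.375, 1.12 and 0.728 FPKM in CR livers, against 3.68, 4.27 and 152 FPKM in AL livers. AL liver 3 stood 38.2 times above the mean of the other AL livers. Without it the mean was 6.13-fold lower in CR livers, and the log2 difference was -2.56, in place of -4.30 with all livers. The CR values rest on 16 to 50 reads per liver. In AL livers 1 and 2 there were 156 and 189 reads, and in AL liver 3 there were 6157.

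Because Saa3 is also made in adipose tissue and macrophages, the markers of those cells are given beside it. Of 7 adipocyte markers, 6 were detected and Lep was at 0 in every liver. Their summed level was 2.76 to 5.54 FPKM in CR livers and 7.81 to 20.5 FPKM in AL livers, with AL liver 3 at 7.81 FPKM, the lowest of the AL livers. The higher sums of AL livers came mostly from Cidec (1.19 to 3.79 FPKM in CR livers, against 12.8, 11.8 and 2.94 FPKM in AL livers) and Cfd (0 to 0.331 FPKM in CR livers, against 3.41 to 6.26 FPKM in AL livers), whereas Fabp4 averaged 1.61 FPKM in CR livers and 1.67 FPKM in AL livers. Adipoq, Plin1 and Retn, which mark adipocytes more strictly, were at 0 to 0.133 FPKM in CR livers and 0 to 0.0426 FPKM in AL livers. The 12 macrophage markers, all detected, summed to 136 to 389 FPKM in CR livers and 255 to 370 FPKM in AL livers. CR liver 3 was the lowest of all livers at 136.0 FPKM, and AL liver 3 the highest AL liver at 369.6 FPKM. For neutrophils 9 of 11 markers were detected, Ly6g and Mpo were at 0 in every liver, and the sums were 5.44 to 18.1 FPKM in CR livers and 8.33 to 21.4 FPKM in AL livers, with 8.33 FPKM in AL liver 3. The part of these cells in the Saa3 levels was not tested.

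Saa4 (ENSMUSG00000040017), the constitutive gene, had the smallest spread of the 7. It had 41.9, 47.8, 38.8 and 45.5 FPKM in CR livers, against 384, 398 and 369.8 FPKM in AL livers. Neither CR liver 3 nor AL liver 3 was high, at 0.860 and 0.945 times the other livers of its diet. The means were 43.5 ± 3.98 FPKM in CR livers (SD, n = 4) and 384 ± 14.3 FPKM in AL livers (SD, n = 3), 8.83-fold lower in CR, and the log2 difference of -3.14 was between -3.19 and -3.09 when any single liver was left out. Its SD on the log2 scale was 0.13 in CR livers and 0.05 in AL livers, against 1.86 and 1.42 for Saa1.

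Orm1 (ENSMUSG00000039196) was the most abundant orosomucoid in every liver, and its levels overlapped between the diets. It had 697, 1042, 1984 and 840.0 FPKM in CR livers, against 1089, 1187 and 5294 FPKM in AL livers. The groups overlapped, since CR liver 3 was above AL livers 1 and 2. The means were 1141 ± 579 FPKM in CR livers (SD, n = 4) and 2523 ± 2399.9 FPKM in AL livers (SD, n = 3), and the log2 difference was -0.86. Without AL liver 3 it was -0.12, so the lower mean of CR livers rests on that liver.

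Orm2 (ENSMUSG00000061540) had no direction that held over the livers. It had 175, 349.8, 688 and 133 FPKM in CR livers, against 40.9, 71.2 and 1113 FPKM in AL livers. Every CR liver was above AL livers 1 and 2 and below AL liver 3, which was 19.9 times the other AL livers. The mean of CR livers, 336 ± 253 FPKM (SD, n = 4), was lower than the mean of AL livers, 408 ± 610.5 FPKM (SD, n = 3), while the log2 difference was 0.88. Without AL liver 3 the mean of CR livers was 6.0 times that of AL livers and the log2 difference 2.34. Without AL liver 1 the log2 difference was -0.043.

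Orm3 (ENSMUSG00000028359), the least abundant orosomucoid, was higher in CR livers. It had 35.9, 74.2, 65.6 and 29.9 FPKM in CR livers, against 3.65, 4.26 and 15.4 FPKM in AL livers. AL liver 3 was again the highest AL liver, but the groups did not overlap. The means were 51.4 ± 21.8 FPKM in CR livers (SD, n = 4) and 7.79 ± 6.63 FPKM in AL livers (SD, n = 3), 6.60-fold higher in CR, with a log2 difference of 2.92, or 3.57 without AL liver 3. The reads behind these values numbered 463 to 939 in CR livers and 46 to 186 in AL livers.

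**Figure D1:**
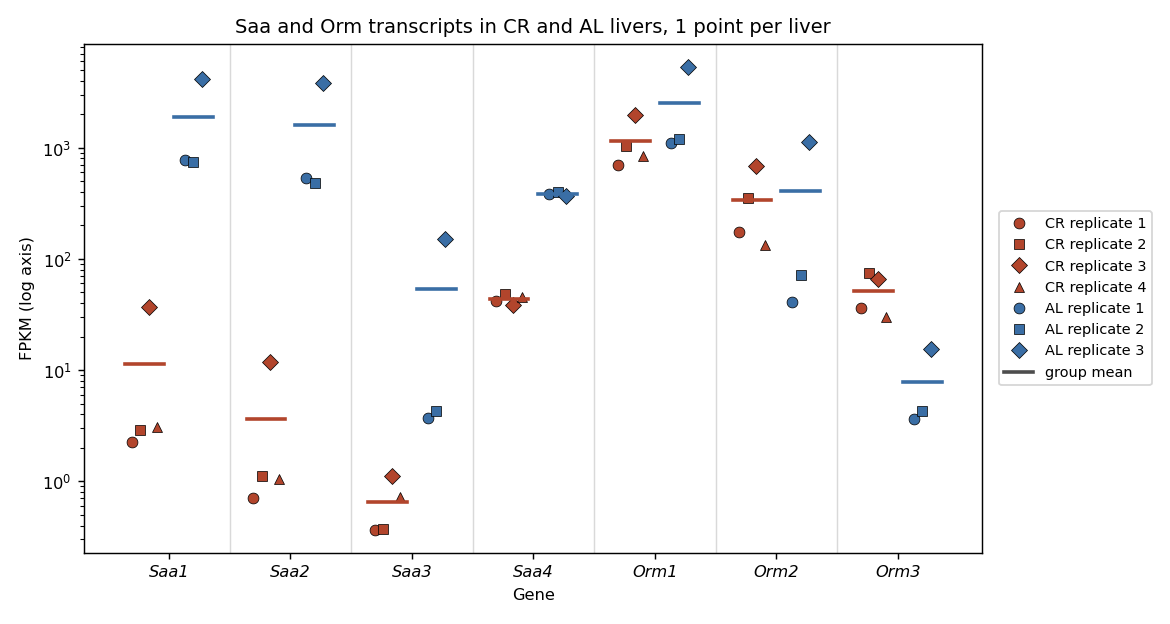
FPKM on a log axis for each gene, with 1 point per liver (red, CR replicates 1 to 4; blue, AL replicates 1 to 3; the marker shape is the replicate number) and a line at each group mean. Saa1, Saa2 and Saa3 are lower in CR livers with wide spreads, Saa4 is lower with a narrow spread, Orm1 and Orm2 overlap between the diets, and Orm3 is higher in CR livers.

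Of the 7 genes, 4 were lower in every CR liver than in every AL liver (all Saa genes), 1 was higher (Orm3) and 2 overlapped. Over the 12699 genes tested, 16.8% were lower without overlap and 17.6% were higher without overlap, 34.4% in either direction. The members were chosen on this contrast, so nothing is read from their count. The median log2 difference of all genes tested was -0.002.

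The order of the levels differed between the diets. By mean FPKM it was Orm1, Orm2, Orm3, Saa4, Saa1, Saa2 and Saa3 in CR livers, and Orm1, Saa1, Saa2, Orm2, Saa4, Saa3 and Orm3 in AL livers. In CR livers the FPKM ranges of Orm1 and Orm2, of Orm2 and Orm3, and of Saa4 and Saa1 did not overlap. Those of Orm3 and Saa4, of Saa1 and Saa2, and of Saa2 and Saa3 did. In AL livers every pair of neighbours overlapped in FPKM except Saa4 and Saa3. These ranges do not compare the genes within a liver. By FPKM, Saa1 was above Saa2 and Saa2 above Saa3 in every CR liver. Orm1 was above Saa1 and Saa1 above Saa2 in every AL liver. Orm2 was below Saa4 in AL livers 1 and 2, at 40.9 and 71.2 FPKM, against 384 and 398 FPKM. Its place above Saa4 in the AL order rests on AL liver 3.

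The length behind the FPKM bears on that order. The deposited lengths of Saa1, Saa2 and Saa3 were 2478, 2518 and 2606 bases and equal the union of all annotated exons, retained-intron transcripts included, which is 4.07, 4.16 and 4.70 times the coding transcript. For Saa4 and the Orm genes the coding transcript has the whole deposited length. With the reads divided by coding transcript length in kilobases and by reads in genes, scaled like FPKM, Saa1 had 9.24, 11.7, 148 and 12.7 in CR livers, against 3197, 3212 and 16932 in AL livers, and Orm1 had 696, 1034, 1961 and 855 in CR livers, against 1110.1, 1252 and 5275 in AL livers. On this scale Saa1 was above Orm1 in every AL liver. Saa4 had 41.8, 47.5, 38.3 and 46.3 in CR livers, so its range overlapped that of Saa1, as it did not in FPKM. In AL livers Saa3 had 17.6, 21.1 and 709, against 392, 420 and 369 for Saa4, so these ranges overlapped too. Differences between diets for a single gene do not depend on the length.

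The make-up of each family was also read from the read counts, which are not divided by length. The coding transcript of Saa4 has 2094 bases, against 609, 606 and 555 for Saa1, Saa2 and Saa3. This raises the share of Saa4 in reads. Divided by coding transcript length as above, CR liver 1 had 41.8 for Saa4, against 9.24, 2.90 and 1.72 for Saa1, Saa2 and Saa3. CR liver 3 had 38.3 for Saa4, against 148, 48.1 and 5.20. Saa4 took 91.3%, 90.2%, 39.6% and 88.7% of all Saa reads in CR livers, against 19.8%, 21.4% and 3.67% in AL livers. The widest 95% Wilson interval of these shares was 38.0% to 41.3%, for CR liver 3, and covers counting error only. Orm1 took 76.8%, 71.1%, 72.5% and 83.8% of Orm reads in CR livers, against 96.1%, 94.0% and 82.4% in AL livers, with a widest interval of 76.1% to 77.5% for CR liver 1. For each FPKM of Orm1 there were 0.0515, 0.0712, 0.0331 and 0.0356 FPKM of Orm3 in CR livers, against 0.00336, 0.00359 and 0.00292 in AL livers. For this ratio AL liver 3 was close to the other AL livers, although all 3 Orm genes had their highest AL level there. For Orm2 the ratio to Orm1 was 0.250, 0.336, 0.347 and 0.158 in CR livers, against 0.0376, 0.0600 and 0.210 in AL livers, and AL liver 3 reached the CR range.

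**Figure D2:**
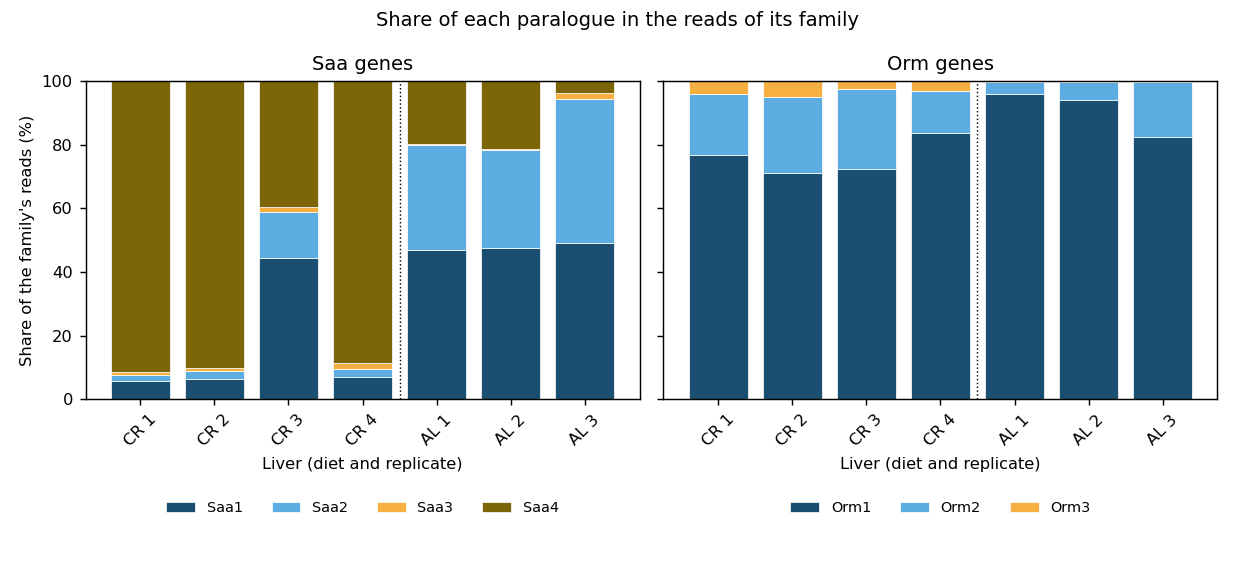
Share (%) of each paralogue in the reads of its family, Saa left and Orm right, with 1 bar per liver, CR replicates 1 to 4 left of the dotted line and AL replicates 1 to 3 right of it. Saa4 makes up 88.7% to 91.3% of Saa reads in CR livers 1, 2 and 4 and 39.6% in CR liver 3, against 3.67% to 21.4% in AL livers. Reads are not divided by coding transcript length, which is 2094 bases for Saa4 and 555 to 609 bases for Saa1, Saa2 and Saa3.

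As a share of all reads in genes, the 4 Saa genes took 0.00959%, 0.0110%, 0.0203% and 0.0109% in CR livers, against 0.415%, 0.412% and 2.10% in AL livers. The 3 Orm genes took 0.0702%, 0.113%, 0.210% and 0.0791% in CR livers, against 0.0895%, 0.103% and 0.496% in AL livers. The widest 95% Wilson interval for the Saa share was 2.10% to 2.11% and for the Orm share 0.493% to 0.499%, both for AL liver 3. The Saa shares did not overlap between the diets, and the Orm shares did.

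A liver from each diet thus stood apart in these genes, and the deviation was set against all genes tested. On the log2 scale CR liver 3 exceeded the mean of the other CR livers by 3.71 for Saa1, which ranked 6 among 12699 genes, by 3.51 for Saa2 (rank 8), by 1.78 for Orm2 (rank 109), by 1.23 for Orm1 (rank 239) and by 1.10 for Saa3 (rank 307). For Orm3 the excess was 0.61 (rank 877) and for Saa4 it was -0.21 (rank 9901). AL liver 3 exceeded the mean of the other AL livers by 5.22 for Saa3 (rank 2), by 4.36 for Orm2 (rank 9), by 2.92 for Saa2 (rank 43), by 2.46 for Saa1 (rank 78), by 2.22 for Orm1 (rank 108) and by 1.94 for Orm3 (rank 132). Saa4 was at -0.08 (rank 7603). The Saa1 and Saa2 pair thus led in CR liver 3, and Saa3 and Orm2 led in AL liver 3. An excess over 1 was found for 365 genes in CR liver 3, for 554 genes in AL liver 3 and for 75 genes in both, of which 5 were members, all but Saa4 and Orm3. The genes were chosen partly for this spread, so the ranks describe them and test nothing.

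**Figure D3:**
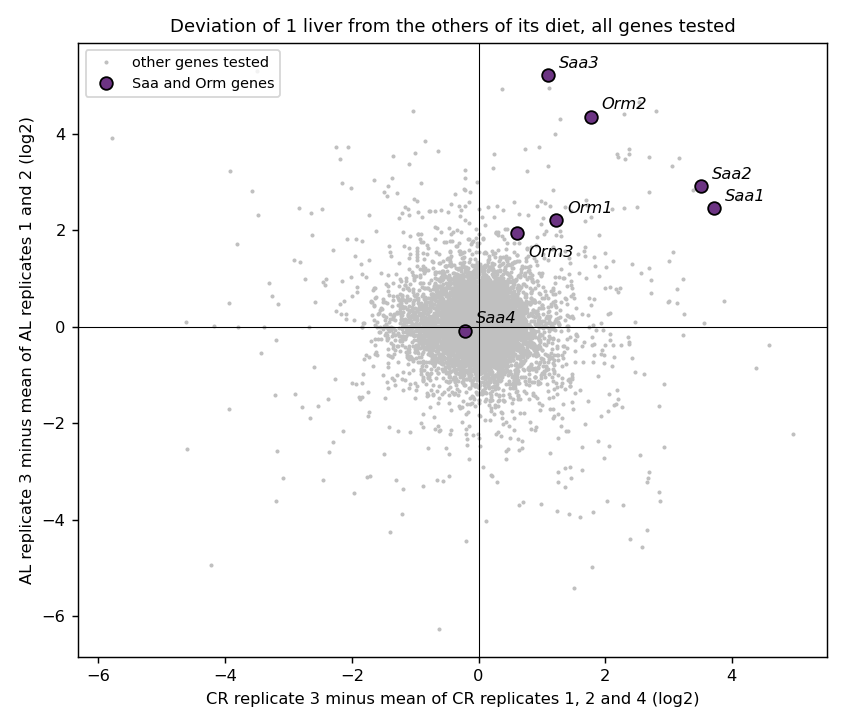
For each gene tested, the log2 deviation of CR replicate 3 from the mean of CR replicates 1, 2 and 4 (horizontal) and of AL replicate 3 from the mean of AL replicates 1 and 2 (vertical), with the 7 Saa and Orm genes in purple. Saa1, Saa2, Saa3, Orm1 and Orm2 exceed 1 on both axes, and Saa4 lies near the origin at -0.21 and -0.08.

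The other acute-phase genes come from lists that were written with earlier results of these data known, and single genes were tested with limma on all 12699 genes, p-values being adjusted over all of them by Benjamini-Hochberg. At an adjusted p under 0.05, 11.3% of all genes tested rose in CR livers and 10.2% fell, 21.5% in either direction. Of 25 other positive acute-phase genes, all tested, 11 fell in CR livers, 0 rose and 14 did not pass, and the median log2 difference was -1.07. At an unadjusted p under 0.05, 14 fell and 0 rose. The share of all genes at that unadjusted threshold is not given here, so unadjusted counts here and below have no background beside them. Limma-voom on recovered reads called 13 of the list lower and 0 higher, against 1530 lower and 1319 higher among all genes tested. Without AL liver 1 or without AL liver 2, 7 genes of the list fell, while 603 and 540 of all genes tested fell in place of 1291. CR liver 3 was the highest CR liver for 16 of the 25 genes, against 27.5% of all genes tested. AL liver 3 was the highest AL liver for 15 of them, against 39.5% of all genes tested.

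Among these genes, some were lower in CR livers with little spread, as Saa4 was. Crp, the gene of C-reactive protein, fell to 68.0 ± 6.81 FPKM in CR livers (SD, n = 4), against 132.6 ± 7.03 FPKM in AL livers (SD, n = 3), a log2 difference of -0.97 ± 0.11 (SE, limma adjusted p = 0.00146). The fibrinogen chain genes Fgg and Fga fell by 1.19 ± 0.14 and 1.14 ± 0.14 on the log2 scale (limma adjusted p = 0.0017 and 0.0018). AL liver 3 stood close to the other AL livers for these 3 genes, with 140.5 FPKM for Crp, against 130.3 and 127 FPKM in AL livers 1 and 2, and 2902 FPKM for Fgg, against 3068 and 2849 FPKM in AL livers 1 and 2. Serpina3n, which encodes a secreted protease inhibitor, is outside the naming rule and was picked after its values were seen. Its spread was wider than that of these 3 genes, with 146, 196, 259 and 268 FPKM in CR livers, against 963, 719 and 1596 FPKM in AL livers. AL liver 3 was 1.90 times the mean of the other AL livers for Serpina3n. The gene fell by 2.29 ± 0.31 on the log2 scale (SE, limma adjusted p = 0.00283).

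Others had the pattern of Saa1, Saa3, Orm1 or Orm2, with AL liver 3 far above the rest. Lcn2, the gene of the iron-siderophore-binding lipocalin 2, had 3.65, 13.3, 45.7 and 5.62 FPKM in CR livers, against 33.8, 35.1 and 765 FPKM in AL livers, and its log2 difference of -3.18 ± 1.25 (SE) did not pass (limma adjusted p = 0.110). The deviation of AL liver 3 was 4.47 for Lcn2, which ranked 7. Apcs, the gene of serum amyloid P component, had 144, 252, 299.9 and 151 FPKM in CR livers, against 109, 133 and 1142 FPKM in AL livers. Like Orm2, it was higher in every CR liver than in AL livers 1 and 2, and lower than in AL liver 3 (log2 difference -0.34 ± 0.77, SE, limma adjusted p = 0.785). Hp, the haemoglobin-binding haptoglobin, had 1145 to 3599 FPKM in CR livers, against 3377, 3872 and 10362 FPKM in AL livers (log2 difference -1.47 ± 0.49, SE, limma adjusted p = 0.0666), and passed in limma-voom (adjusted p = 0.042) and without CR liver 3 (limma adjusted p = 0.0357). Hpx, the haem-binding haemopexin and the gene most like Orm1 in level over the 7 livers (Pearson r = 0.996, a description), had 2240 to 6635 FPKM in CR livers, against 3576, 3989 and 14040 FPKM in AL livers (log2 difference -0.79 ± 0.54, SE, limma adjusted p = 0.334).

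Not every acute-phase gene was high in AL liver 3. Steap4, a metalloreductase gene picked after its values were seen, had 29.3 to 37.4 FPKM in CR livers, against 536, 516 and 104 FPKM in AL livers, so AL liver 3 was the lowest AL liver for it. It fell by 3.25 ± 0.53 on the log2 scale (SE, limma adjusted p = 0.00581).

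**Figure D4:**
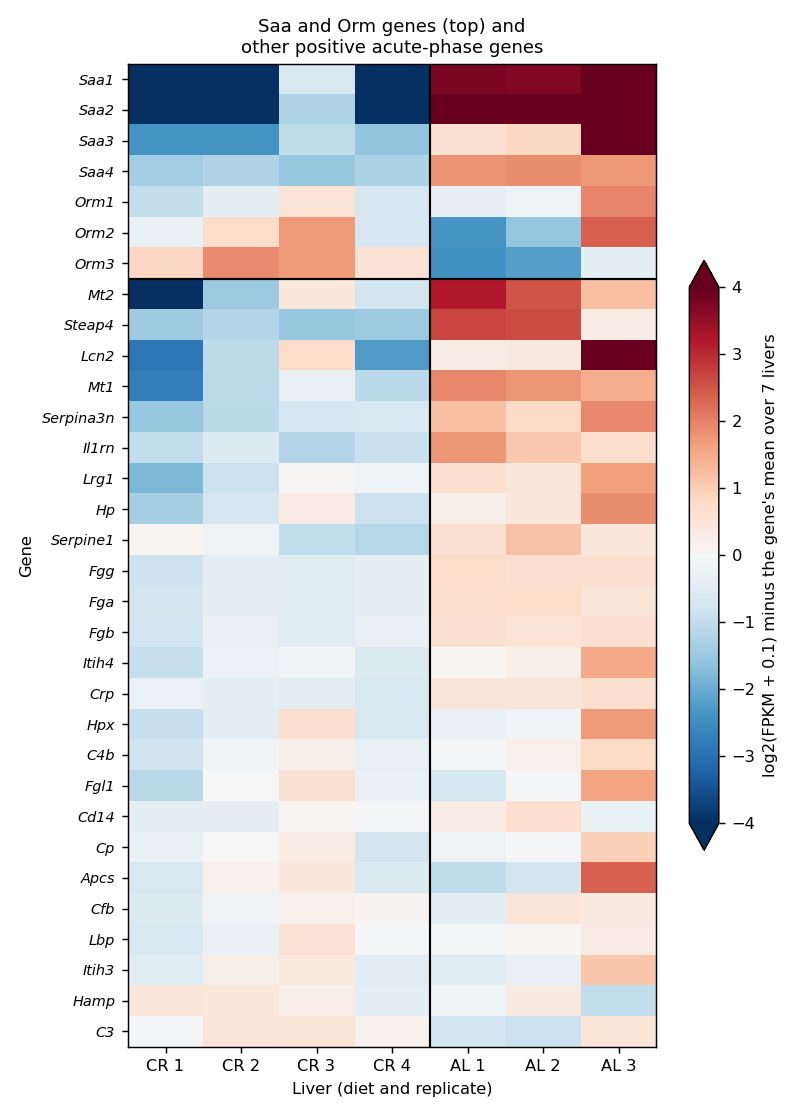
Log2(FPKM + 0.1) of each gene minus its mean over the 7 livers, CR replicates left of the vertical line and AL replicates right of it, the 7 Saa and Orm genes above the horizontal line and the 25 other positive acute-phase genes below it, ordered by log2 difference. Colours are capped at 4 in both directions. AL replicate 3 is red for Saa3, Orm1, Orm2, Lcn2, Hp, Hpx and Apcs, while Orm3 is red in CR livers and blue in AL livers.

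Negative acute-phase proteins are those whose synthesis falls during the response. Of 9 such genes tested, 3 rose in CR livers, 0 fell and 6 did not pass (limma), with a median log2 difference of 0.27. At an unadjusted p under 0.05, 3 rose and 2 fell, and limma-voom called 3 higher and 1 lower (1319 and 1530 among all genes tested). Alb was at 39211 ± 2409 FPKM in CR livers (SD, n = 4) and 20408 ± 5770 FPKM in AL livers (SD, n = 3; log2 difference 0.98 ± 0.21, SE, limma adjusted p = 0.017). It was lowest in AL liver 3, at 13855 FPKM, against 24725 and 22643 FPKM in AL livers 1 and 2, and under quantile normalization its adjusted p was 0.166. Rbp4, the retinol carrier, rose by 0.64 ± 0.14 (SE, limma adjusted p = 0.0179) and Serpina6, the plasma carrier of corticosteroids, by 1.21 ± 0.32 (SE, limma adjusted p = 0.034). Serpina6 did not pass with CR liver 2, CR liver 4, AL liver 1 or AL liver 2 left out (limma adjusted p between 0.0595 and 0.119).

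Of 37 cytokine, receptor and transcription factor genes of the response, 32 passed the filter, of which 9 fell in CR livers, 2 rose and 21 did not pass, with a median log2 difference of -0.47. Without AL liver 1 or AL liver 2, 4 and 3 genes fell and 0 rose. Calls over all genes tested were fewer too, with 603 and 540 lower in place of 1291, and 778 and 669 higher in place of 1433. Among cytokines, Il6 was at 0 in every CR liver and in 2 of 3 AL livers, Il22 was at 0 in all 7, and Il1b fell to 0.682 ± 0.230 FPKM in CR livers (SD, n = 4), against 2.82 ± 1.23 FPKM in AL livers (SD, n = 3; log2 difference -1.87 ± 0.36, SE, limma adjusted p = 0.0112). Among receptors, the leukaemia inhibitory factor receptor Lifr fell by 1.85 ± 0.18 (SE, limma adjusted p = 0.000753) and the IL-1 receptor accessory protein Il1rap by 0.56 ± 0.09 (SE, limma adjusted p = 0.00499). The IL-6 receptor Il6ra was at 12.8 ± 3.36 FPKM in CR livers (SD, n = 4) and 8.36 ± 1.86 FPKM in AL livers (SD, n = 3) and did not pass (limma adjusted p = 0.0999), and neither did the IL-1 receptor Il1r1 (log2 difference -0.79 ± 0.50, SE, limma adjusted p = 0.297).

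Socs3, a STAT3 target that shuts off IL-6 signalling, had 1.34, 2.98, 4.79 and 5.56 FPKM in CR livers, against 24.0, 16.1 and 9.52 FPKM in AL livers, and fell by 2.22 ± 0.50 (SE, limma adjusted p = 0.0192). The adjusted p was 0.0732 without AL liver 1 and 0.0682 without AL liver 2. AL liver 3, the highest AL liver for Saa1, was the lowest for Socs3. Stat3 (log2 difference -0.51 ± 0.22, SE, limma adjusted p = 0.137), Cebpb (-0.87 ± 0.45, 0.212), Cebpd (-0.68 ± 0.33, 0.188), Hnf4a (-0.03 ± 0.20, 0.938) and the NF-kB co-regulator Nfkbiz (0.17 ± 0.18, 0.545) did not pass. AL liver 3 was the lowest AL liver for 18 of the 32 genes, against 37.7% of all genes tested. Stat3 had 22.4 FPKM there, against 35.8 and 38.7 FPKM in AL livers 1 and 2, and without that liver it passed as lower in CR livers (log2 difference -0.75, limma adjusted p = 0.0253).

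SAA travels on HDL and binds scavenger and innate immune receptors. Of 14 genes of SAA receptors and HDL partners, 13 passed the filter, of which 1 fell in CR livers, 1 rose and 11 did not pass, with a median log2 difference of -0.04. Cd36, a scavenger receptor, was at 48.6 ± 10.9 FPKM in CR livers (SD, n = 4) and 15.3 ± 1.19 FPKM in AL livers (SD, n = 3), a rise of 1.63 ± 0.18 (SE, limma adjusted p = 0.00118). Abca1, the cholesterol exporter that loads nascent HDL, fell by 1.14 ± 0.21 (SE, limma adjusted p = 0.00962). The main HDL apolipoprotein genes Apoa1 (log2 difference -0.70 ± 0.22, SE, limma adjusted p = 0.0564) and Apoa2 (0.25 ± 0.16, 0.308) did not pass. Apoa1 passed as lower in CR livers in limma-voom (adjusted p = 0.0383), with at least 1 FPKM in every library (limma adjusted p = 0.0487) and without AL liver 3 (limma adjusted p = 0.0113).

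Among 11 lipocalins other than the orosomucoids and the major urinary proteins, 10 were in the table and 6 passed the filter. Of these 1 rose in CR livers, 2 fell and 3 did not pass, with a median log2 difference of -0.47. Obp2a, an odorant-binding lipocalin, had 0, 0, 0 and 0.0671 FPKM in CR livers, against 2.97, 3.56 and 5.17 FPKM in AL livers (limma adjusted p = 9.21e-05), and C8g, the lipocalin chain of complement component C8, fell by 0.59 ± 0.15 (SE, limma adjusted p = 0.0304), a call lost without CR liver 2, CR liver 3 or any 1 of the AL livers (limma adjusted p between 0.0506 and 0.102). Rbp4 and Lcn2, given above, belong to this list too.

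Other genes near the clusters were read in the same way. Within 200 kb of the outermost Saa genes lie 19 other annotated genes, of which 8 passed the filter. Ldha, the muscle-type lactate dehydrogenase subunit, fell by 0.91 ± 0.14 (SE, limma adjusted p = 0.00482) with 162, 177, 204 and 209 FPKM in CR livers, against 303, 367 and 391 FPKM in AL livers. The other 7 (Sergef, Saal1, Hps5, Gtf2h1, Gm9392, Tsg101 and Uevld) did not pass, with log2 differences between -0.40 and 0.57. The pseudogene Saa-ps, inside the cluster, was at 0 in every liver. Around the Orm genes 5 of 10 others passed the filter and none of these 5 was called (Ambp, Col27a1, Akna, Atp6v1g1 and Tmem268), with log2 differences between -1.06 and 0.50 and limma adjusted p between 0.0536 and 0.937. The size of the difference was above that of Orm1 and Orm2 for Col27a1 (-1.06). At an unadjusted p under 0.05 there was 1 of these 5, Col27a1, which was called lower in limma-voom (adjusted p = 0.0291) and with each library scaled to its own reads (limma adjusted p = 0.0471). Tmem268 was called higher without AL liver 3 (limma adjusted p = 0.0271), as was Uevld beside the Saa genes (limma adjusted p = 0.0469).

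**Figure D5:**
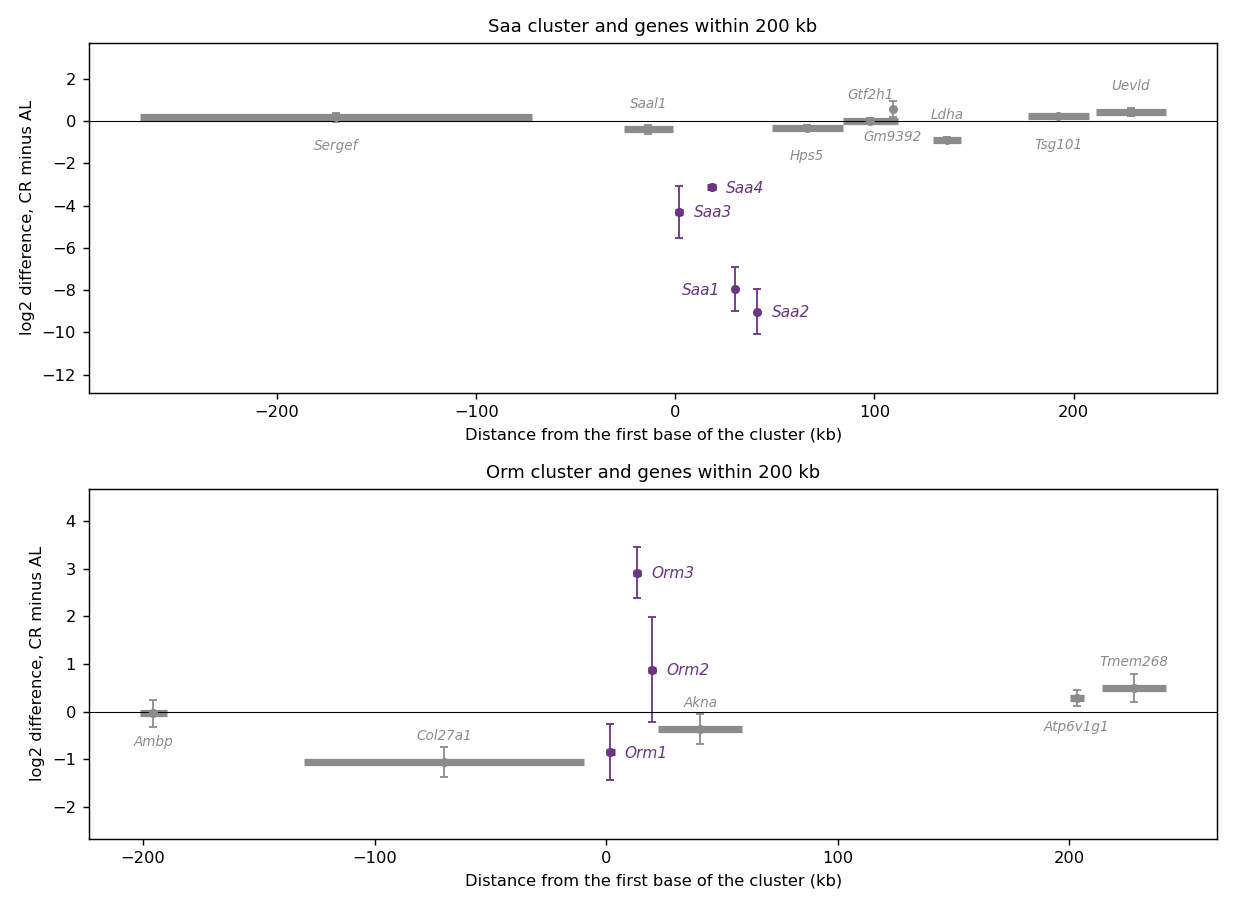
Log2 difference (CR minus AL) against distance in kb from the first base of each cluster, Saa above and Orm below, for the members (purple) and for other genes within 200 kb that passed the filter (grey). Horizontal bars are the gene spans and vertical bars the standard errors of the limma fit. The 8 grey genes around the Saa cluster lie between -0.91 and 0.57, and the Saa genes between -9.02 and -3.14.

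The genes most like each member in level were found among the 12698 other genes tested, by Pearson r of log2(FPKM + 0.1) over the 7 livers. These r are descriptions. For the Saa genes and Orm3, which did not overlap between the diets, r in levels includes the difference between the diets. Orm1 and Orm2 overlapped between the diets and were highest in AL liver 3. Saa1 and Saa2 were most like each other (r = 0.999), followed for both by Tmem250-ps (r = 0.996). Saa4 was most like Gm21320 (r = 0.9996) and the major urinary protein gene Mup7 (r = 0.999), Saa3 most like Pomt2 (r = 0.990), Orm2 most like Letmd1 (r = 0.975) and Orm3 most like Golim4 (r = 0.996). The deviations from the group means leave out the difference between the diets. For each member but Saa4, the largest upward deviation was that of AL liver 3 or CR liver 3. In these deviations Saa1 and Saa2 had r = 0.993 with each other, Orm1 and Orm2 r = 0.973, and Orm2 and Orm3 r = 0.958. Across the families, Orm1 and Saa2 had r = 0.924 and Orm1 and Saa3 r = 0.924. Saa4 had negative r with all 6 others, between -0.76 and -0.23. Its deviations were small, with log2 SDs of 0.13 in CR livers and 0.05 in AL livers. The gene with the most similar deviations was Irf1 for Saa1 (r = 0.996), Saa1 for Saa2, Tmem37 for Saa3 (r = 0.999), Ighg2c for Saa4 (r = 0.993), Serping1 for Orm1 (r = 0.997), Map3k13 for Orm2 (r = 0.996) and Fam81a for Orm3 (r = 0.997).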

How the data were processed

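The members and gene lists were chosen with earlier results of these data known. The authors deposited FPKM for 54532 genes, with gene coordinates and lengths. Tools listed in the submitters' processing notes are HISAT2 2.0.5, featureCounts 1.5.0-p3 and CASAVA 2.19, with builds GRCm38 and mm10. Whether counting used strand was not stated. Multiplied by gene length, 100% of FPKM values became whole numbers of reads (tolerance 0.01), so low values are limited by depth. Libraries were grouped by their labels, and none repeated another. The 12699 genes that reached 0.5 FPKM in 3 or more libraries were tested on log2(FPKM + 0.1), two-sided, in R 4.3.3 with limma 3.58.1 and its trended, robust variance (statmod 1.5.0) and Benjamini-Hochberg adjustment, called at an adjusted p under 0.05. Named genes are the members; in each list the 3 with the smallest adjusted p, the 1 with the highest mean and Lcn2, Hp, Apcs, Crp, Stat3, Cebpb, Cebpd, Nfkbiz, Socs3, Il6ra and Il1r1; tested neighbours within 200 kb; and the genes most like each member. Shared words and coding sequences came from GENCODE M21, and promoters from RefSeq GRCm38.p6. Alternatives were the pseudocount, the filter, scaling, variance model, limma-voom on recovered reads, a replicate block and each library left out. No table of proteins was used here.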

Additional observations from a re-analysis of the deposited data

Results flagged for a closer look

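For 47 genes, the members and the named genes of the lists, the distance of the highest or lowest of the 4 CR livers from its nearest neighbour was divided by the range of the group, and 5 exceeded Dixon's 95% limit for 4 values. Chance alone passes it in about 1 in 20 groups. The members were chosen with their spread known, so their ratios are a description. CR liver 3 was the highest for Saa1 (0.977) and for Saa2 (0.962), and the lowest for Il1rap (0.867). CR liver 2 was the highest for Cfd, the adipocyte gene of adipsin (a ratio of 1, with the other 3 CR livers at 0), and CR liver 4 the highest for Obp2a (also 1, with the others at 0). A ratio of 1 follows whenever 3 of 4 values are 0, so these 2 genes show only that 1 liver had reads. The AL livers, 3 in number, were too few for this measure.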

How the results depend on the processing

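With all livers 1433 genes rose in CR and 1291 fell. Leaving out any 1 liver gave 669 to 1514 and 540 to 1149. Without CR liver 2, AL liver 1 and AL liver 2, 907, 778 and 669 rose, and 849, 603 and 540 fell. Without a filter on low values 986 rose. In positive acute-phase genes, 0 rose and 11 fell, with 1 rising under quantile normalization and 0 to 1 rising and 7 to 11 falling when 1 liver was left out (7 without AL liver 1 or 2). In cytokine and transcription factor genes, 2 rose and 9 fell. Of these 0 rose with no filter, 1 with at least 1 FPKM in every library, 1 in limma without trend and robust variance, and 0 to 2 rose and 3 to 13 fell when 1 liver was left out (fewest without AL liver 2). Replicate numbers did not pair the livers (r of deviations 0.03, -0.04 and -0.06 for equal numbers). The replicate block, in which CR liver 4 has no partner and drops out of the difference, gave 482 rising and 508 falling genes over all, and 1 rising and 3 falling in the cytokine list.

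Of the 7 members, each kept its sign under the alternatives of the processing that gave it a value (the stricter filter left out Saa2 and Saa3), and with 1 liver left out only Orm2 changed sign, ranging from -0.043 to 2.34. Single genes that changed sign were not called with all livers. They were Ambp (0.27 under quantile normalization, -0.27 to 0.30 without 1 liver), Gtf2h1 (-0.021 scaled to own reads and -0.024 in voom, -0.067 to 0.082) and Retnlg (0.27 in the block, -1.02 to 0.27), and, without 1 liver, Apcs (-0.95 to 0.74), Cd5l (-0.49 to 0.14), Fabp4 (-0.12 to 0.12), Hnf4a (-0.21 to 0.14) and Sergef (-0.010 to 0.31). The causes were not tested.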
